A study of Mus musculus with 6 samples.

Results

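The constitutive proteasome genes are the genes whose symbols in the platform annotation begin with Psma, Psmb, Psmc or Psmd, without the immunoproteasome genes Psmb8, Psmb9 and Psmb10. The annotation gives probes for 37 of them. A gene counted as measured where its brightest probe lay above the background level on at least 2 of the 6 arrays, which 32 of the 37 did, among 11285 such genes on the array. Of the 14 core subunits 11 were measured, of the 17 regulatory particle subunits 16, and of the 6 remaining genes of these symbols 5. The core subunits Psma1, Psma3 and Psma6, the regulatory subunit Psmd3 and the thymus-specific Psmb11 lay at background. The measured subunits passed this level on all 6 arrays, and Psma8, which is no part of the heart's constitutive particle, passed it on 5.

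The study profiled total RNA of adult mouse hearts on 6 Illumina bead arrays, 3 of hearts that lack Jmjd2a (Kdm4a, a histone demethylase) and 3 of wild-type hearts. The general knockout, with 1 array, was set against the wild type titled as its control, with 1 array, and no sex is stated for either. The heart-specific knockout had 1 female and 1 male array, set against 1 female and 1 male array of its titled wild types. These matches are called the general, female and male pair here, and differences are log2 intensity of knockout minus wild type within a pair. The Cre driver, the deleted part of the gene, the strain and the number of animals per array are not stated in the labels. Each array has its own combination of line, stated sex and genotype, so the arrays stand for different hearts or pools of hearts. No combination was repeated. A p-value here reflects variation between hearts and technical variation together, which cannot be told apart.

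The labels could be checked in part. The brightest of 3 Kdm4a probes had an intensity of 102 in the general knockout against 115 in its wild type, 107 in the female knockout against 119 in the female wild type, and 114 in the male knockout against 123 in the male wild type. It lay above background on 1 array, so the targeted gene checks nothing here. Xist was above background on both arrays titled female and on no other, and the Y-linked Eif2s3y on the arrays titled male and on both general arrays. The 7 cardiomyocyte markers with a probe were all above background, and the T and B cell markers were not. On each array 18307 to 19658 of 45281 probes lay above the background level of 121 to 123.6. The precision of the values is limited by having 6 arrays.

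The proteasome degrades proteins tagged with ubiquitin. Its core particle stacks rings of alpha subunits, which gate the entrance, around rings of beta subunits, of which Psmb5, Psmb6 and Psmb7 carry the active sites. The regulatory particle caps the core: a ring of ATPases (Psmc genes) unfolds the substrate and threads it inward, while the non-ATPase subunits (Psmd genes) bind and remove ubiquitin and hold the particle together. In heart muscle this system turns over sarcomere and mitochondrial proteins, and subunit genes are known to be induced together by the transcription factor Nfe2l1 through antioxidant response elements in their promoters.

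The 250 bases before the annotated start of 5 subunit genes are printed as examples. Psma7, Psmb5 and Psmb6 are core genes with higher signal in the male knockout. Psmd4 and Psmd12 are regulatory genes with lower signal in every knockout. The examples do not stand for all subunits. Psma5 and Psma4, with wider male differences (0.39 and 0.35) than Psmb6 (0.24), are not printed, and their promoters hold no TGACNNNGC. Psmb5, Psmb6 and Psmd12 hold it, so the examples carry it more often than the promoters counted below. The sequences are RefSeq's, on build GRCm38.p6. Capitals mark the antioxidant response element core TGACNNNGC or the box CCAAT, searched on both strands.
Psma7 (chr2:180042465-180042714, minus strand): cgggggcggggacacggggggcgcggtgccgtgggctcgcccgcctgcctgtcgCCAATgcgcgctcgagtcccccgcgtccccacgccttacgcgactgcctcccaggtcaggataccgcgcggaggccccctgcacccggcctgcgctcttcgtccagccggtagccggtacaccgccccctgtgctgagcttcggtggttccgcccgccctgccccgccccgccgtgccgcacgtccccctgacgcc
Psmb5 (chr14:54617996-54618245, minus strand): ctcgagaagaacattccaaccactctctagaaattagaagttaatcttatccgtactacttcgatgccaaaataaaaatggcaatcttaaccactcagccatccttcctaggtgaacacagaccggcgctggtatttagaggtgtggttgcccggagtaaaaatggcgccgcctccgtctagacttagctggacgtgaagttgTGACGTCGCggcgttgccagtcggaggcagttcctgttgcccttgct
Psmb6 (chr11:70525107-70525356, plus strand): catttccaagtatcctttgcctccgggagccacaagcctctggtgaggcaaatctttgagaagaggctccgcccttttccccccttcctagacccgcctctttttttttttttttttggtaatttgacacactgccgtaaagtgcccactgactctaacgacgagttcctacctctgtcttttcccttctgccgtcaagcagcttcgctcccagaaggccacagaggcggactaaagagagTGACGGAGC
Psmd4 (chr3:95042615-95042864, minus strand): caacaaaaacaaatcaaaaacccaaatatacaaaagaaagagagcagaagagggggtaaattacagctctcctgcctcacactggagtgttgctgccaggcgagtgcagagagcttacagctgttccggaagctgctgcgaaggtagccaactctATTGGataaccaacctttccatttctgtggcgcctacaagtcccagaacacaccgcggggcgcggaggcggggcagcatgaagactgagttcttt
Psmd12 (chr11:107479278-107479527, plus strand): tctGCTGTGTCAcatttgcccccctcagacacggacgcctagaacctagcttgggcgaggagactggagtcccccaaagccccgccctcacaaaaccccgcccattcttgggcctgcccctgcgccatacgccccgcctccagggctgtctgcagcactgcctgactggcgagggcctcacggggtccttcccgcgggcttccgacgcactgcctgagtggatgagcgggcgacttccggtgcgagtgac
Of the 37 genes, 30 matched the promoter table, with 32 promoters. TGACNNNGC was found in 5 of these 32 promoters (15.6%), those of Psmb5, Psmb6, Psmd12, Psmc6 and Psmd9, against 10.2% of all 32851 promoters in the table. In Psmb5 the match begins 47 bases before the start and in Psmb6 9 bases before it, and in Psmd12 it lies on the opposite strand, 247 bases before it. CCAAT was found in 13 of the 32 promoters (40.6%), against 33.8% of all promoters, and in none of the 5 that hold TGACNNNGC. Of the genes with TGACNNNGC, Psmb5 and Psmb6 are core genes, and Psmd12 and Psmc6 are regulatory genes. A part of either motif in the differences below was not tested.

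Across the 3 pairs the proteasome genes did not move as a block. In the male pair the core genes had higher signal in the knockout in 10 of 11 cases, with a median difference of 0.35, where 49.8% of all 11285 genes were higher. In the same pair the regulatory particle genes had lower signal in the knockout in 12 of 16 cases, with a median of -0.13, where 50.1% of all genes were lower. In the female pair 8 of 11 core genes were lower in the knockout (median -0.15), and 22 of all 32 genes, where 51.1% of all genes were lower. In the general pair 13 of 16 regulatory particle genes were lower in the knockout (median -0.09), and 21 of all 32 genes, where 46.5% of all genes were lower. Core genes in the general pair were split, with 5 higher and 6 lower (median -0.08).

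None of these differences passed a test for a single gene. Over 3 pairs, 0 of 32 proteasome genes passed limma's moderated test at an adjusted p under 0.05, as did 0 (0%) of all 11285 genes, and the adjusted p of all 32 was 0.9998. At an unadjusted p under 0.05 limma called 0 of the 32, against 2.68% of all genes. In the heart-specific pairs alone limma called 0 of 32 after adjustment (adjusted p of 0.9755 to 0.9932), against 0 (0%) of all genes, and 0 of 32 before it, against 4.47% of all genes. The smallest two-sided p that an exact sign-flip test of 3 pairs allows is 0.25, and that of an exact permutation of 3 against 3 arrays is 0.1. The values below are therefore a description of 6 arrays.

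**Figure D1:**
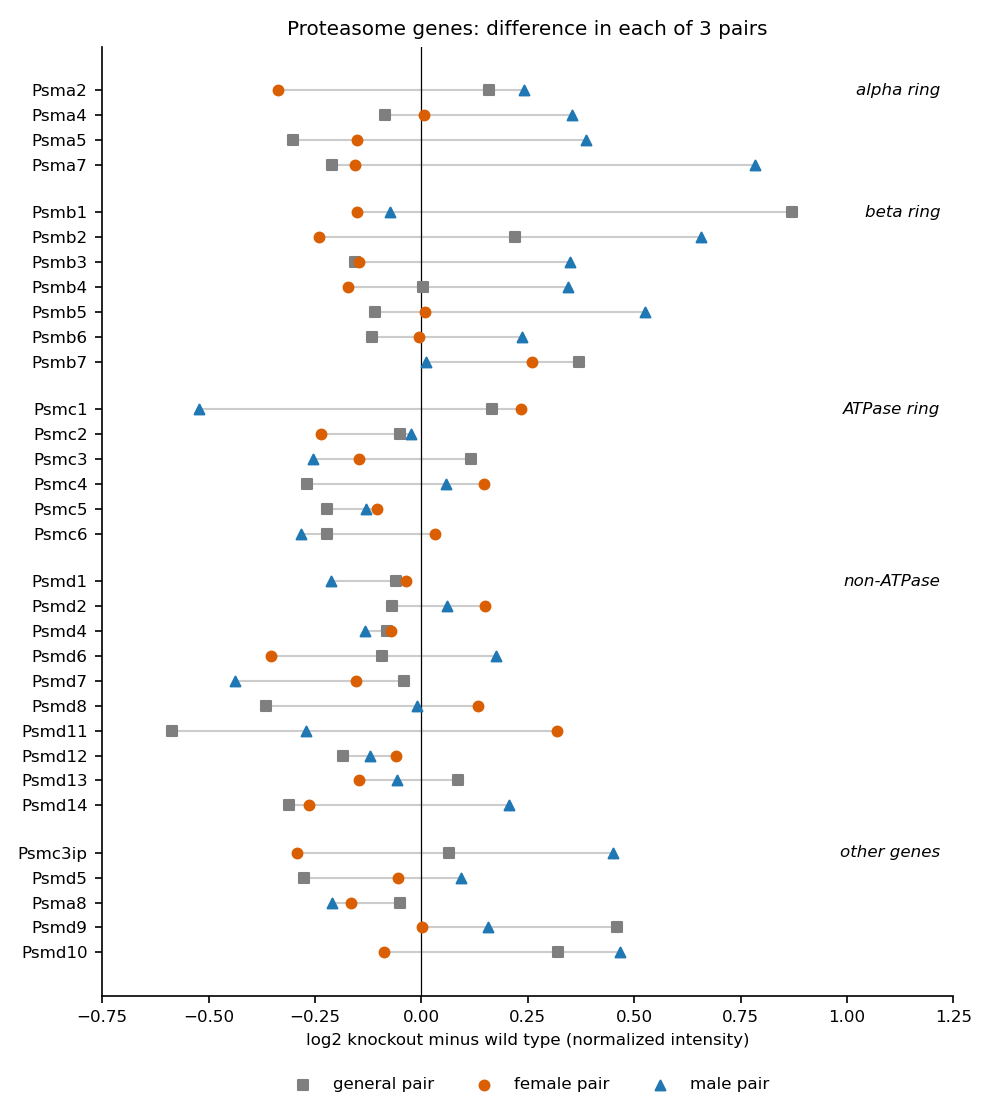
Log2 knockout minus wild type (normalized intensity, horizontal axis) of the 32 measured genes, grouped by part of the particle, with a square for the general, a circle for the female and a triangle for the male pair, and a grey line joining the 3 values of a gene. In the alpha and beta rings 10 of 11 triangles lie right of 0, and in the ATPase and non-ATPase groups 12 of 16 lie left of it.

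The alpha ring was represented by Psma2, Psma4, Psma5 and Psma7. Psma7 had an intensity of 2587 in the general knockout against 2993 in the general wild type, 2687 in the female knockout against 2993 in the female wild type, and 2623 in the male knockout against 1523 in the male wild type. The male wild type was the low array, and the other 5 lay close together. The log2 differences of -0.21, -0.16 and 0.78 averaged 0.14 ± 0.56 (SD, n = 3 pairs), so the spread exceeded the mean. Psma5 had 5402 in the general knockout against 6658 in its wild type, 5449.5 in the female knockout against 6052 in its wild type, and 5334 in the male knockout against 4082 in its wild type. Its 3 knockout values were nearly equal, and it was the wild types that differed (mean -0.02 ± 0.36). Psma2 had 9181 in the general knockout against 8225 in its wild type, 8933 in the female knockout against 11279.7 in its wild type, and 8921 in the male knockout against 7552.5 in its wild type. There too the knockout arrays lay closer together than the wild types. Psma4 differed by -0.08, 0.01 and 0.35 in the general, female and male pair. All 4 alpha genes were lowest in the male wild type.

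Among the catalytic beta subunits, Psmb5, which carries the chymotrypsin-like site, had 797 in the general knockout against 860.4 in its wild type, 584 in the female knockout against 580.5 in its wild type, and 476 in the male knockout against 331 in its wild type. The male pair alone showed a gap (0.52, against -0.11 in the general and 0.01 in the female pair). Psmb6, the caspase-like subunit, had 5579 in the general knockout against 6042 in its wild type, 4585.5 in the female knockout against 4606 in its wild type, and 4640.2 in the male knockout against 3939 in its wild type. Its differences were -0.11, -0.01 and 0.24 (mean 0.04 ± 0.18). Psmb7, the trypsin-like subunit, went another way: 6413 in the general knockout against 4964 in its wild type, 6575 in the female knockout against 5490.3 in its wild type, and 5353.5 in the male knockout against 5309 in its wild type. It was the only core gene with higher signal in all 3 knockouts (0.37, 0.26 and 0.01, mean 0.21 ± 0.18), and its unadjusted p of 0.0993 by limma was the smallest of the 32 genes over 3 pairs.

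Of the beta subunits without an active site, Psmb2 had 5449.5 in the general knockout against 4679 in its wild type, 5621 in the female knockout against 6641 in its wild type, and 5449.5 in the male knockout against 3455 in its wild type. The knockout arrays were again alike, and the difference ran from -0.24 in the female to 0.66 in the male pair. Psmb1 was the exception of the core in the male pair: it had 2856 in the general knockout against 1561 in its wild type, 2365 in the female knockout against 2628 in its wild type, and 1655 in the male knockout against 1740.5 in its wild type. Its difference of 0.87 in the general pair was the largest of the 32 genes there, with -0.15 and -0.07 in the female and male pair. Psmb3 and Psmb4 differed by 0.35 and 0.34 in the male pair and by -0.15 and -0.17 in the female pair.

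**Figure D2:**
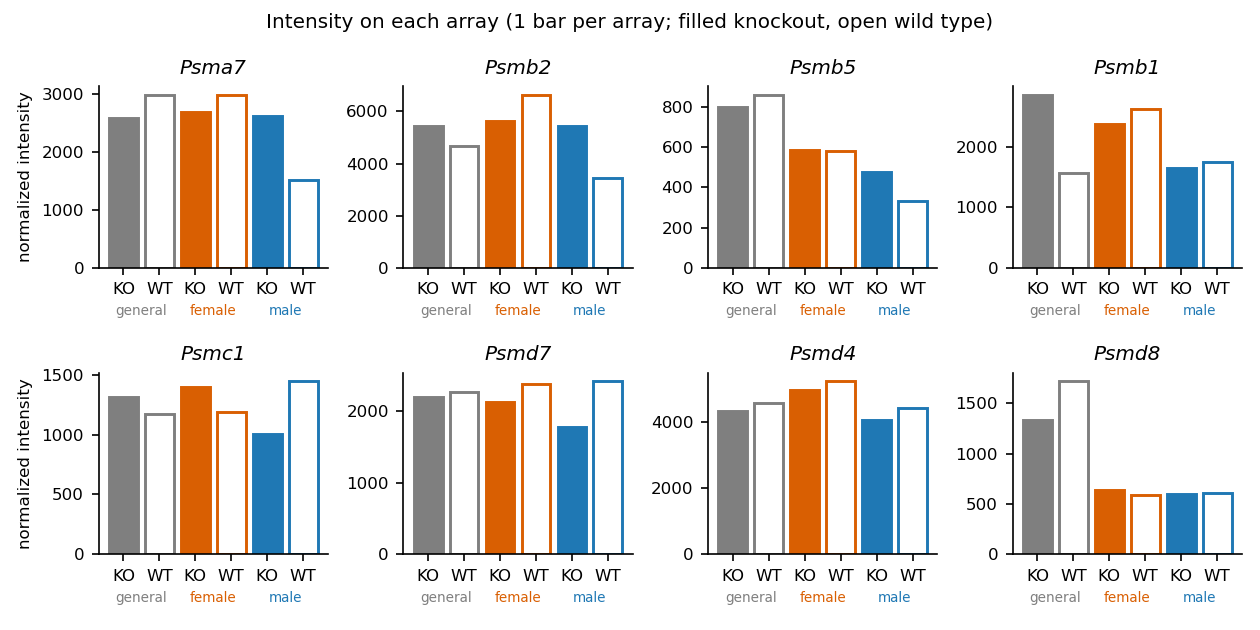
Normalized intensity (vertical axis, linear and starting at 0, its own scale in each panel) of 8 genes, 1 bar per array, filled for knockout and open for wild type, with the general pair in grey, the female in orange and the male in blue. The open blue bar is the lowest of Psma7, Psmb2 and Psmb5, the grey filled bar stands out in Psmb1, and both grey bars stand out in Psmd8.

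The male difference was also read as levels on each array. Set against each gene's own mean over 6 arrays, the core genes had a median of -0.38 in the male wild type, while the other 5 arrays ranged from -0.04 to 0.15. The male wild type was the lowest of the 6 arrays for 9 of 11 core genes, for 1 of 16 regulatory genes and for 14 of all 32, where this held for 22.1% of all genes. Male minus female, the core genes differed by a median of -0.04 between knockouts and of -0.59 between wild types, where all 11 were lower. With the male knockout set against the female wild type in place of its own, 2 of 11 core genes were higher in the knockout, where 47.7% of all genes were, and against the general wild type 5 of 11, where 51.8% were. The count of 10 of 11 higher core genes was thus reached against the male wild type only. The other wild types differ from it in sex or line. The array, its heart and the knockout cannot be told apart here. Of the regulatory genes 11 of 16 were lower in the male knockout against the female wild type, where 52.2% of all genes were, and 14 of 16 against the general one, where 48.1% were. General minus male, 13 of 16 regulatory genes were higher between the knockouts, where 5689 of all 11285 genes were. Between the wild types 11 of 16 were, where 5386 of all genes were. The part of this array difference in the last count was not tested.

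**Figure D3:**
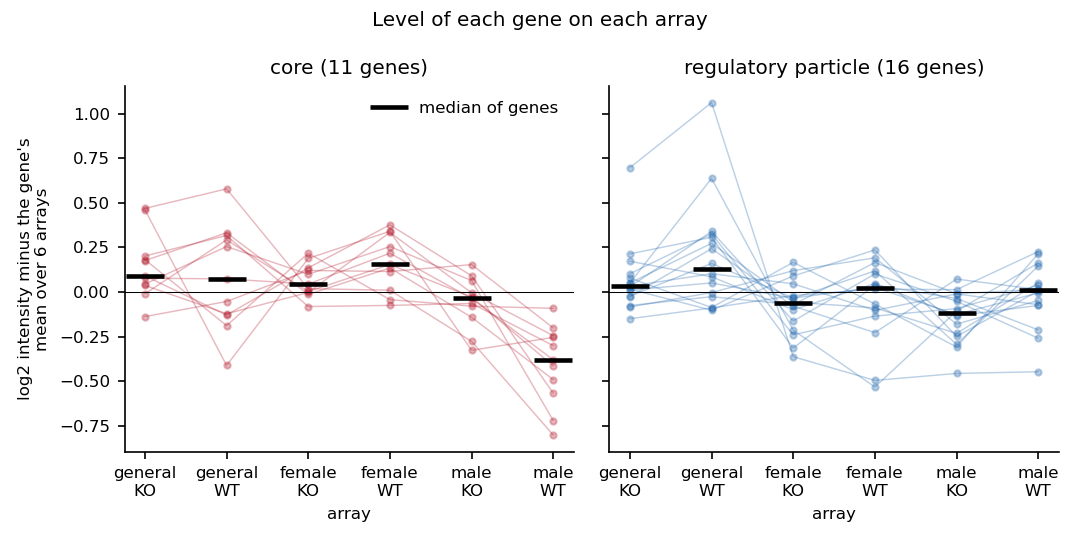
Log2 intensity minus the gene's mean over 6 arrays (vertical axis) for the 11 core and the 16 regulatory particle genes on each array, with a thin line per gene and a black bar at the median of the genes. The core median lies at -0.38 in the male wild type and between -0.04 and 0.15 elsewhere, while the regulatory medians lie between -0.12 and 0.13.

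Averaged over 3 pairs, 10 of 11 core genes had a mean above 0 (median 0.09), where 51.3% of all genes did. Without the male pair 2 of 11 did, so this count rests on that pair. Of the regulatory particle genes 15 of 16 had a mean below 0 (median -0.10), where 48.7% of all genes did, and 12 to 14 of 16 did without a pair in turn. These means were small, from -0.21 to 0.05. The SDs over pairs ran from 0.03 to 0.46.

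In the ATPase ring, all 6 genes had a mean below 0. Psmc1, known from yeast for a tail that helps to open the gate of the core, had 1316 in the general knockout against 1173 in its wild type, 1399 in the female knockout against 1189.5 in its wild type, and 1007 in the male knockout against 1446 in its wild type. Its male wild type was the highest array and its male knockout the lowest (-0.52 in the male pair, against 0.17 and 0.23 in the general and female pair). Psmc5 had 2425 in the general knockout against 2828.5 in its wild type, 1913 in the female knockout against 2057 in its wild type, and 2118 in the male knockout against 2318 in its wild type. It was lower in each knockout by a similar amount (-0.22, -0.10 and -0.13, mean -0.15 ± 0.06), though a second, dimmer probe had differences of mixed sign. Psmc3 differed by 0.12, -0.15 and -0.26 in the general, female and male pair, and Psmc2 by -0.05, -0.24 and -0.02. Psmc4 and Psmc6 had no common sign over the pairs.

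Of the non-ATPase subunits, Psmd4 is a receptor for ubiquitin chains. It had 4329 in the general knockout against 4578 in its wild type, 4984 in the female knockout against 5239 in its wild type, and 4049.9 in the male knockout against 4439 in its wild type. Its differences of -0.08, -0.07 and -0.13 averaged -0.10 ± 0.03, the smallest SD among the 32 genes, while the arrays of the genotypes overlapped. Psmd14, the deubiquitinase of the lid, had 963 in the general knockout against 1194 in its wild type, 844 in the female knockout against 1013 in its wild type, and 911 in the male knockout against 789 in its wild type. It was lower in the general and female knockouts (-0.31 and -0.26) and higher in the male one (0.21). A second, dimmer probe gave -0.92, 0.01 and -0.29, so the female and male directions were not shared. Psmd7, which pairs with Psmd14, had 2196 in the general knockout against 2257 in its wild type, 2126 in the female knockout against 2365 in its wild type, and 1779 in the male knockout against 2410.4 in its wild type. Its 3 knockout arrays lay below its 3 wild-type arrays (-0.04, -0.15 and -0.44, mean -0.21 ± 0.21). Its unadjusted p by limma in the heart-specific pairs, 0.0715, was the smallest of the 32.

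Psmd12, a lid subunit, had 1842 in the general knockout against 2091 in its wild type, 1828.5 in the female knockout against 1905 in its wild type, and 1715 in the male knockout against 1865 in its wild type. Its knockout arrays also lay below all its wild types (mean -0.12 ± 0.06), and its second probe gave nearly the same values (-0.21, -0.06 and -0.11). Psmd7 and Psmd12 were thus 2 of 32 genes with every knockout array below every wild-type array, where 3.06% of all genes were. The scaffold subunit Psmd1 differed by -0.06, -0.04 and -0.21 in the general, female and male pair, while a probe about as bright gave 0.05, -0.22 and 0.01. The other scaffold subunit, Psmd2, lay just above background, at 147 to 169.7 on the 6 arrays, where a background left in the values compresses differences, and its differences of -0.07, 0.15 and 0.06 had no common sign. Psmd11 and Psmd6, both of the lid, gave the widest differences of the non-ATPase genes in the general and in the female pair: Psmd11 had 354 in the general knockout against 531 in its wild type (-0.59) and 294 in the female knockout against 236 in its wild type (0.32), and Psmd6 had 280.4 in the female knockout against 358 in its wild type (-0.35). A second, dimmer probe of Psmd11 was lower in all 3 knockouts (-0.23, -0.19 and -0.21), so the female direction of the first was not shared. Psmd13 differed by 0.09, -0.15 and -0.06.

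Counting signs, 6 of 16 regulatory particle genes (Psmc2, Psmc5, Psmd1, Psmd4, Psmd7 and Psmd12) and 0 of 11 core genes were lower in the knockout of all 3 pairs. With Psma8 these were 7 of 32, where 10.5% of all genes were. By the mean of a gene's probes 4 of 16 regulatory genes had this pattern, and among the 6 the probes of Psmc2, Psmc5, Psmd1 and Psmd7 differed in sign in at least 1 pair. Higher in all 3 knockouts were Psmb7 and Psmd9, 2 of 32, where 11.3% of all genes were.

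The genes that share the symbols without being stable subunits of the heart's particle varied as much. Psmd9, a chaperone of base assembly, had 224 in the general knockout against 163 in its wild type, 172.2 in the female knockout against 172.1 in its wild type, and 178.5 in the male knockout against 160.1 in its wild type. It was the 1 gene of 32 with every knockout array above every wild type, where 3.14% of all genes were, and it rests on the gap of 0.1 in the female pair. Psmd10, known as gankyrin and another such chaperone, had differences of 0.32, -0.09 and 0.47, and Psmd5, also a chaperone, of -0.28, -0.06 and 0.09. Psma8, the testis-specific alpha subunit, lay at 121 to 148, so that its differences (-0.05, -0.17 and -0.21) are close to background. Psmc3ip, named for binding an ATPase subunit and known for its role in meiotic recombination, differed by 0.07, -0.29 and 0.45.

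Several genes had more than 1 probe above background, which tests how far a value depends on the probe. Of these 15 genes, all probes agreed in sign in 9 in the general pair, in 5 in the female pair and in 8 in the male pair. In the male pair the probes of Psma7 (0.52 and 0.78), Psmb2 (0.43 and 0.66) and Psmb6 (0.24 and 0.30) were all higher in the knockout. The 4 probes of Psmb7 ran from -0.64 to 0.15, and the dimmest of the 4 was lower in all 3 knockouts. The 3 probes of Psmd7 ran from -0.44 to 0.39 in the male pair, so that the low value of the brightest probe was not shared. The second probe of Psmd14 had 625 in the general knockout against 1184 in the general wild type (-0.92), a wider gap than the brighter probe. In the female and male pair it gave 0.01 and -0.29, against -0.26 and 0.21 by the brighter probe. The mean over 3 pairs differed in sign between probes in 7 of the 15 genes: Psma7, Psmb7, Psmc5, Psmd2, Psmd6, Psmd7 and Psmd9.

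**Figure D4:**
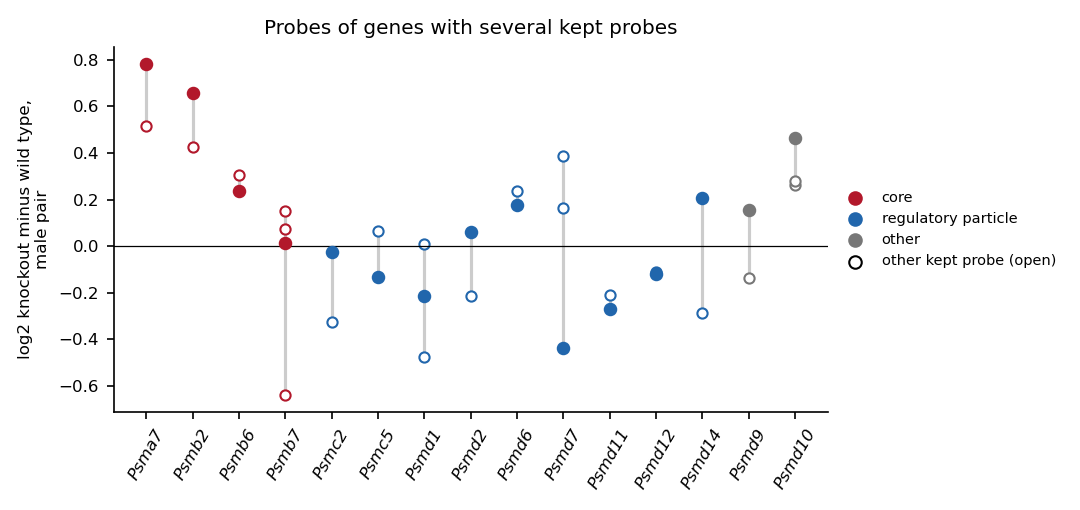
Log2 knockout minus wild type in the male pair (vertical axis) for every probe above background of the 15 genes with several, filled for the brightest probe used in the text and open for the others, coloured by part of the particle. The probes of Psma7, Psmb2 and Psmb6 all lie above 0, while those of Psmb7 and Psmd7 lie on both sides of it.

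The lines and sexes were compared within the same fits. Between lines (the general difference minus the heart-specific one), limma called 0 of 32 genes after adjustment (adjusted p of 0.3997 to 0.9988), against 9 genes (0.0798%) of all. Before adjustment it called 1 of 32, Psmb1, against 6.42% of all genes. The knockout difference of Psmb1 was higher in the general line by 0.98 ± 0.22 (SE), with a limma p of 0.003315 and an adjusted p of 0.3997. Male minus female over the 4 heart-specific arrays, limma called 0 of 32 after adjustment (adjusted p of 0.2559 to 0.9962), against 6 genes (0.0532%) of all, and 2 of 32 before it, against 11.2% of all genes. These were Psmb1 (-0.55 ± 0.13 SE, adjusted p = 0.2559 by limma) and Psmb5 (-0.55 ± 0.16 SE, adjusted p = 0.3105 by limma), both with lower signal in the male arrays of both genotypes. Each sex is 1 pair, and arrays of a pair share deviations, so these p-values do not cover the variation between pairs. In 7 of 32 genes (Psma4, Psmb1, Psmb5, Psmc3, Psmc4, Psmd2 and Psmd13) the general pair differed in the opposite direction to both heart-specific pairs, where 28.5% of all genes did.

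Levels in the general arrays over the heart-specific ones, with genotype in the fit, were compared after the values had been seen. Psmd8, a lid subunit, had 1336 in the general knockout and 1720.2 in the general wild type, against 641 in the female knockout, 601 in the male knockout, 585 in the female wild type and 605 in the male wild type. The general arrays were higher by 1.32 ± 0.13 (SE, log2), with a limma p of 1.394e-05 and an adjusted p of 0.07865. That is the smallest adjusted p of all genes in this comparison, and a gene with a smaller unadjusted p shares it. Limma called 0 of 32 after adjustment, as it did 0 (0%) of all genes, and 6 of 32 before it (Psmb5, Psmb6, Psmc5, Psmd6, Psmd8 and Psmd11, all higher in the general arrays), against 11% of all genes. This fit counts the arrays of the general pair as replicates, although they are 1 pair set against 2. With the pair as a random block limma gave Psmd8 an adjusted p of 0.06842. That fit estimated a correlation of -0.0341 within pairs over all genes, and the SE was 0.12. The block therefore did not correct for counting arrays as replicates. Male minus female within the heart-specific line, with 1 pair per sex, Psmd8 differed by -0.02 ± 0.13 (SE). A part of sex in the level of the general arrays, whose sex is not stated, was not tested. The line and the handling of its hearts cannot be told apart.

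Other gene families were read in the same way. The 59 measured cytosolic ribosomal protein genes had medians of -0.20, -0.04 and 0.37 in the general, female and male pair, were higher in the male knockout in 52 cases and lowest in the male wild type in 46. The 42 measured Nduf genes, for subunits and assembly factors of respiratory complex I, had medians of 0.12, -0.03 and 0.26, were higher in the male knockout in 35 cases and lowest in the male wild type in 25. The core proteasome genes thus had a male median (0.35) close to that of the ribosomal genes, and the regulatory genes (-0.13) did not. Among all 1911 genes with a mean log2 intensity of at least 10 the male median was -0.01. These genes were not matched in intensity to the families above, and a part of intensity in the male differences was not tested.

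**Figure D5:**
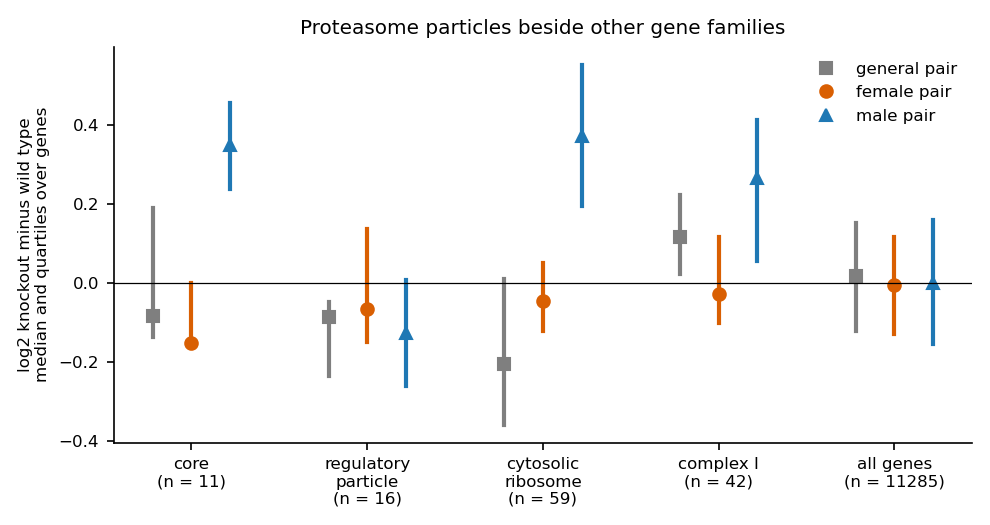
Median log2 knockout minus wild type (symbols) with the quartiles over genes (bars, vertical axis) in the general, female and male pair for core proteasome, regulatory particle, cytosolic ribosome, complex I and all measured genes. In the male pair the core (0.35), ribosome (0.37) and complex I (0.26) medians lie above 0, the regulatory particle median at -0.13 and that of all genes near 0.

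Markers of heart cell types differed within the pairs too. All 7 cardiomyocyte markers were lower in the male knockout (median -0.36), and their summed intensity was 150989, 157878 and 147651 in the general, female and male knockout, against 144802, 145405 and 174464 in the general, female and male wild type. The summed fibroblast markers were 21384 in the male knockout against 26902 in the male wild type, with 2 of 7 higher in the knockout. The summed smooth muscle markers were 24879 in the male knockout against 17292 in the male wild type, but 1 of the 3 measured was higher and their median was -0.11. The 5 measured atrial markers summed to 20241 in the general knockout against 43301 in its wild type, 23600 in the female knockout against 13657 in its wild type, and 26731 in the male knockout against 18855 in its wild type. Of these 5, the general, female and male knockout were higher in 1, 4 and 3. The 3 measured neutrophil markers summed to 616 in the general knockout against 1290.0 in the general wild type, with 1 higher in the knockout. Of the skeletal muscle and adipocyte markers 1 each was above background. In whole-heart RNA fewer cells of a type and less RNA per cell cannot be told apart, and the part of these markers in the proteasome differences was not tested.

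Genes that work with the proteasome were read from lists. None of their members passed limma's test over 3 pairs (adjusted p = 0.9998 for each). Of the proteasome activators, Psme4, which caps the core without ATPases, had the widest difference in the male pair, with 6252 in the male knockout against 11520.0 in the male wild type (-0.88). Psme4 differed by 0.33 in the general and -0.07 in the female pair. Psme2, a subunit of the interferon-induced cap, differed by 0.27, -0.06 and 0.55, and its partner Psme1 by 0.30, -0.07 and 0.05. The immunoproteasome genes, which replace the catalytic beta subunits after interferon, had higher signal in both heart-specific knockouts and lower in the general one in all 3 cases. The general pair opposed both heart-specific pairs, in either direction, in 28.5% of all genes. For each of these genes the male wild type was the lowest of the 6 arrays, as it was for 22.1% of all genes. Psmb8 had 430.4 in the general knockout against 462 in its wild type, 478 in the female knockout against 405 in its wild type, and 549 in the male knockout against 337 in its wild type. Psmb9 differed by -0.43, 0.23 and 0.37, and Psmb10 by -0.10, 0.05 and 0.30.

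Of the 7 measured assembly factors, 6 had higher signal in the male knockout (median 0.23), including Psmd5, Psmd9 and Psmd10 described above. Of all genes 49.8% were higher there. For each of these 6 the male wild type was the lowest array, where this held for 22.1% of all genes. These 6 were taken for a male wild type below the male knockout, which by itself makes a lowest male wild type more likely. The share over all genes is therefore no like comparison for them. Of 8 partners and subunits with other symbols, Rad23b, a shuttle that brings ubiquitin-tagged proteins to the proteasome, had 577 in the general knockout against 718 in its wild type, 512 in the female knockout against 592.5 in its wild type, and 567 in the male knockout against 705 in its wild type. Rad23b was lower in every knockout by similar amounts (mean -0.28 ± 0.06, SD, n = 3 pairs). Ecpas, which tethers the particles, differed by 0.10, -0.32 and -0.33, and the deubiquitinase Uchl5 by -0.29, -0.22 and 0.01. Of 8 regulators, Nfe2l1 had 5073 in the general knockout against 4393 in its wild type, 5121 in the female knockout against 5602 in its wild type, and 4572.5 in the male knockout against 6091 in its wild type. Nfe2l1 was thus lower in the male knockout (-0.41), where the core genes were higher and the regulatory genes lower. A link between these was not tested. Its dimerisation partner Mafg differed by 0.23, 0.03 and 0.38, and Foxo3 by 0.08, 0.02 and 0.23.

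Upstream of the proteasome, 7 genes of the Vcp unfolding system and 11 muscle ubiquitin ligases and their partners were measured. Nsfl1c, a Vcp cofactor, had 762 in the general knockout against 1205 in its wild type (-0.66) and differed by -0.18 and 0.05 in the female and male pair. The cofactors Ubxn1 and Faf1 differed by 0.32 and -0.44 in the male pair. Among the ligases the largest means were those of Nedd4 (-0.15 ± 0.27), Fbxo30 (0.15 ± 0.33) and Mdm2 (0.12 ± 0.29, SD, n = 3 pairs each), all smaller than their SD. The atrophy ligases Trim63 and Fbxo32, named here after their values were seen, differed by -0.35, 0.49 and -0.22 and by 0.46, -0.11 and -0.51 in the general, female and male pair.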

How the data were processed

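The 6 deposited columns hold normalized intensities of Illumina bead arrays, which the authors made with GenomeStudio, per the submitters' processing notes; its version and settings, and a genome build, are not stated in these sources. The deposited intensities run from 82.48 to 50962.29, and their sorted columns differ by at most 2.32%, so they are alike in distribution. A background left in compresses differences of dim genes. Another table, with 12 columns of signals and detection p-values under numbers found in no label, was not used here. Log2 of the deposited intensities was taken with no further normalization.

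Probes were named from the platform annotation (34885 with 1 gene, 18 with several, 10378 with none). The background level was the 95th percentile of 1526 probes for sensory receptor genes (olfactory, vomeronasal, trace amine), and 21016 probes above it on at least 2 arrays were kept, with the brightest standing for its gene.

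Tests used limma 3.58.1 in R 4.3.3 (lmFit, eBayes) with Benjamini-Hochberg adjustment over all 11285 genes. Over 3 pairs the pair was a block (2 residual degrees of freedom, prior 5.3). The fit with a knockout term per line left 1 (prior 5.74), as did male minus female with genotype as a term. Titles give the pairs. Within the general, female and male pair, deviations from the mean of each genotype correlated at 0.341, 0.327 and 0.345 across genes, against -0.327 to -0.025 between pairs. Taking deviations within a genotype forces values between pairs to be negative on average where those within pairs are positive. The contrast between them is therefore no separate check of the pairs, which also differ in line and stated sex. Alternatives were the mean of a gene's probes, each probe alone, no filter or a filter on all 6 arrays, normexp background correction (offsets 16 and 50), centring, an intensity trend in the prior, no block, and leaving out each pair.

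The genes, lists and tests were chosen with earlier results of these data known. Genes named are the catalytic core subunits, Psmd14, Psmd4 and Psmd2, the 3 largest differences of each pair, up to 6 genes per direction with 1 sign in every pair, up to 4 per direction by the difference between lines, up to 6 whose probes disagree, and up to 3 genes of each related list by mean difference; the remaining proteasome genes are accounted for beside them.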

Additional observations from a re-analysis of the deposited data

Results flagged for a closer look

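In 7 of 32 genes the general knockout differed from its wild type in the opposite direction to both heart-specific pairs, a pattern that 28.5% of all 11285 genes showed. The difference between lines (general minus heart-specific, log2) was 0.98 for Psmb1 (general 0.87, female -0.15, male -0.07), with an adjusted p of 0.3997 by limma. For Psmb5 it was -0.38 (adjusted p = 0.8903 by limma), for Psmc3 0.32 (adjusted p = 0.8822 by limma) and for Psmd2 -0.17 (adjusted p = 0.9425 by limma). Psma4 had -0.26 (adjusted p = 0.9252 by limma), Psmc4 -0.37 (adjusted p = 0.8595 by limma) and Psmd13 0.19 (adjusted p = 0.941 by limma). None passed the test of the difference, and the general line has 1 array per genotype.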

How the results depend on the processing

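No proteasome gene passed limma's test over 3 pairs, in the heart-specific pairs, between lines or between sexes under any alternative run. The fit with no replicate block also called 0 genes over 3 pairs, and leaving out any of the 3 pairs called 0. The smallest adjusted p of the 32 genes ranged over the settings from 0.9755 to 0.9999 over 3 pairs, 0.9668 to 0.9979 in the heart-specific pairs, 0.1993 to 0.7409 between lines and 0.1337 to 0.415 between sexes. In the level of general over heart-specific arrays it ranged from 0.03085 to 0.1123, and with normexp at offset 50 the count was 1, Psmd8 (adjusted p = 0.03085 by limma). The count was 0 with the pair as a random block, added after seeing the data, a fit that found no positive correlation within pairs. The number of genes lower in every pair (7) ran from 10 to 14 with a pair left out, 14 without the male pair, since fewer pairs have to share a sign. The number higher in every pair (2) was 0 by the mean of a gene's probes, 1 after centring and 3 to 7 with a pair left out, 6 without the general and 7 without the female pair. The male median of the non-ATPase genes was -0.0682 by the mean of probes, against -0.0896 as reported. Core genes higher in the male knockout numbered 2 against the female and 5 against the general wild type, in place of 10. Core genes with a mean above 0 (10) ran from 2 to 11 with a pair left out, 2 without the male pair. The median of the 32 genes over 3 pairs (-0.03) ran from -0.09 to 0.02 with a pair left out. The other 133 of 143 recomputed values were counted as close to the reported ones (medians within the SD of the 3 pairs' medians). That SD was wide for some sets, 0.30 for the alpha ring. By the mean of probes the female ATPase median was 0.003 in place of -0.04. The male median of the 32 genes was 0.0009 in place of 0.06. Regulatory genes lower in every pair then numbered 4 in place of 6. The cause of these shifts was not tested. Leaving out a heart-specific pair was not run in the heart-specific fit, where no residual degree of freedom remains.

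With 6 arrays and 1 array per line, sex and genotype, a difference in 1 pair cannot be separated from the heart or the array it came from. Psmd2, Psmd5, Psmd9, Psmc6 and Psma8 lie near background, where differences are compressed. Intensities of different probes are not comparable as levels.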
